A study of Mus musculus with 31 samples.

Results

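A set of 7 genes of the contractile program that smooth muscle and mammary myoepithelium share was followed through RNA sequencing of sorted regulatory T cells (Tregs): Acta2, Tagln, Cnn1, Myh11, Myl9, Mylk and Oxtr. The genes were chosen by symbol and are 7 of the 24594 genes in the count table. None of them is a textbook marker of T cells. Their RNA was abundant in the Treg libraries of WT mammary gland, about 6-fold to 158-fold lower in those of KEP tumors, and near 0 in those of the remaining tissues (blood, spleen, lung, lymph node), with 3 exceptions: Myl9 and Mylk in blood and Tagln in lung.

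The study compared KEP mice with WT littermates, all on the FVB/N background, in 31 libraries. KEP mice were K14cre;Cdh1F/F;Trp53F/F and carried spontaneous mammary tumors of 225 mm2; the keratin 14 promoter drives Cre, so that E-cadherin and p53 are lost in the epithelium where this promoter is active, which includes basal and myoepithelial cells. The littermates had the genotype wt;Cdh1F/F;Trp53F/F, that is, the same floxed alleles without Cre. KEP libraries came from tumor, blood, spleen, lung and tumor-draining lymph node, 3 libraries each and 1 mouse per library. WT libraries came from mammary gland (4 libraries) and from blood, spleen, lung and lymph node (3 each), and each was a pool of 3 mice. Tregs were sorted as live CD45+ CD3+ CD4+ CD8- CD25+ cells, with no FOXP3 gate. Cells were freed from tumors by collagenase A with DNase and from lungs by Liberase, while the protocol names no enzyme for mammary gland.

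Myoepithelial cells lie between the milk-secreting luminal cells and the basement membrane of the mammary ducts and alveoli. Oxytocin released at suckling binds the oxytocin receptor (Oxtr) on these cells, calcium rises, and myosin light chain kinase (Mylk) becomes active. The kinase phosphorylates the regulatory light chain (Myl9), and smooth muscle myosin (Myh11) then pulls on smooth muscle actin (Acta2), which squeezes milk out. Transgelin (Tagln) and calponin (Cnn1) bind the actin filaments. The same set is used by smooth muscle cells of vessel walls and airways, and Acta2, Tagln and Myl9 are also made by activated fibroblasts and pericytes. Apart from Oxtr, the genes are classic targets of serum response factor with its myocardin-family partners, which bind a short A/T-rich element called the CArG box.

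Total counts ran between 8154765 and 15258958 per library. The summed level of 10 pan-T cell genes, in CPM (counts scaled to 1000000 reads per library), was 84.5% to 106.1% of the WT spleen mean in every library outside tumor and gland. It was 110.1%, 64.4% and 33.4% in KEP tumors 1, 2 and 3, and 7.85%, 33.6%, 2.87% and 3.71% in WT mammary glands 1, 2, 3 and 4. Foxp3, the lineage factor of Tregs, averaged 972.7 ± 584.8 CPM in tumors (SD, n = 3) and 139.9 ± 187.1 CPM in glands (SD, n = 4). The gland libraries therefore hold little T cell RNA against their label, gland 2 more than the others, and tumor 3 holds the least among the tumors. In bulk RNA, fewer cells of a type and less RNA per cell cannot be told apart.

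Upstream sequence could be read for 5 of the 7 genes from the RefSeq promoter table (GRCm38.p6). The 250 bases before the annotated start are shown for Acta2 (chr19:34255374-34255623, minus strand) and Myl9 (chr2:156775214-156775463, plus strand), which are the actin and the light chain of the motor and the only 2 of the 5 with a match. Capitals mark stretches of 10 bases that match the CArG box with at most 1 letter off; the search reads the same on both strands.
Acta2: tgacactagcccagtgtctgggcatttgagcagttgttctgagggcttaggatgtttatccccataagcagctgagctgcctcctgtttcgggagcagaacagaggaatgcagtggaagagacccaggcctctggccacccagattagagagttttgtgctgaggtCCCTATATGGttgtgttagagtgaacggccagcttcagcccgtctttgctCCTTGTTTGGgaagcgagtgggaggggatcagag
Myl9: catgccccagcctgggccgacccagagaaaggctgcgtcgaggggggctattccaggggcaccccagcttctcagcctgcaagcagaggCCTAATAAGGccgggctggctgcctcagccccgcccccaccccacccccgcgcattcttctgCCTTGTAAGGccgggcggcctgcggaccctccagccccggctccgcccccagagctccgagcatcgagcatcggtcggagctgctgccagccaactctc
The Acta2 window held 2 such stretches, starting 84 and 34 bases before the start, and the Myl9 window held 2, at 161 and 99 bases. The stretch at 161 bases in Myl9 was the only exact CArG box among the 5 windows, and 1.47% of 32851 promoters hold an exact one. With 1 letter off, 18.6% of all promoters hold a match, so the matches are a description of these 2 sequences and nothing more.

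The first comparison set Tregs of KEP tumors against Tregs of WT mammary gland. All 7 genes fell in tumor libraries by edgeR's quasi-likelihood test with Benjamini-Hochberg adjustment over 14538 genes, at adjusted p values between 0.0039 and 0.0221. In that test 14% of all genes were called lower and 11.2% higher. Oxtr and Myh11 passed the filter on low counts only through the gland libraries, so their calls were set by where they are high. Every tumor library lay below every gland library for 7 of the 7 genes, which was the case for 25.7% of all genes tested. The median log2 fold change of the 7 genes was -4.03, beside -0.01 over all genes.

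Smooth muscle actin, Acta2 (GRCm38 chromosome 19, 34241090 to 34255336), had 61.8, 125.9 and 155.1 CPM in tumors 1 to 3, against 1069, 859.9, 1815 and 1174 CPM in glands 1 to 4. It was the most abundant of the 7 genes in both tissues. Its log2 fold change was -3.34 ± 0.42 (SE), with an adjusted p of 0.00434 in edgeR. The heavy chain of smooth muscle myosin, Myh11 (chromosome 16, 14194527 to 14291408), had 0.884, 4.00 and 9.25 CPM in tumors and 590.4, 643.5, 980.6 and 942.7 CPM in glands. Tumor 1 held 9 Myh11 reads and the gland libraries held at least 7460 each. Myh11 showed the widest gap of the 7, with a log2 fold change of -7.30 ± 0.85 (adjusted p = 0.0039, edgeR), a 158.1-fold difference.

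The regulatory light chain Myl9 (chromosome 2, 156775420 to 156781658) had 7.56, 16.2 and 25.3 CPM in tumors, against 196.9, 195.9, 340.6 and 223.0 CPM in glands. The lowest gland library stood well above the highest tumor library, and the log2 fold change was -3.79 ± 0.46 (adjusted p = 0.00417, edgeR). Its kinase Mylk (chromosome 16, 34745210 to 35002420) had 2.55, 12.8 and 22.3 CPM in tumors and 283.0, 312.2, 482.1 and 497.0 CPM in glands, a log2 fold change of -4.89 ± 0.74 (adjusted p = 0.00671, edgeR). The oxytocin receptor gene Oxtr (chromosome 6, 112473684 to 112489808) gave 1, 0 and 50 reads in tumors 1 to 3, against 1041, 638, 1719 and 2207 reads in glands. Nearly all tumor reads of Oxtr thus came from tumor 3, where its level was 4.82 CPM. A count of 0 in tumor 2 allows up to 0.261 CPM (3 reads, counting error only). The log2 fold change of Oxtr was -5.84 ± 1.34 (adjusted p = 0.0221, edgeR).

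The actin-binding Tagln (chromosome 9, 45929628 to 45936058) had 31.7, 80.0 and 106.4 CPM in tumors, against 395.8, 384.2, 670.8 and 403.4 CPM in glands. It was the least lowered of the 7, at a log2 fold change of -2.59 ± 0.45 (adjusted p = 0.00983, edgeR). Calponin, Cnn1 (chromosome 9, 22099281 to 22109630), had 2.16, 3.20 and 10.2 CPM in tumors and 77.6, 53.7, 140.3 and 89.1 CPM in glands. Its log2 fold change was -4.03 ± 0.64 (adjusted p = 0.00771, edgeR). For 62.4% of its exon bases Tagln overlaps an antisense gene, Gm48529, and for 5.43% the gene Pcsk7 on the other strand; 4.87% of the Mylk exon bases overlap antisense E130310I04Rik and 1.99% antisense Gm21691. Whether counting used the strand is not given in the sources used here, so both values are uncertain to that extent. Pcsk7 itself averaged 59.3 ± 6.32 CPM in tumors (SD, n = 3) and 85.3 ± 15.7 CPM in glands (SD, n = 4).

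**Figure D1:**
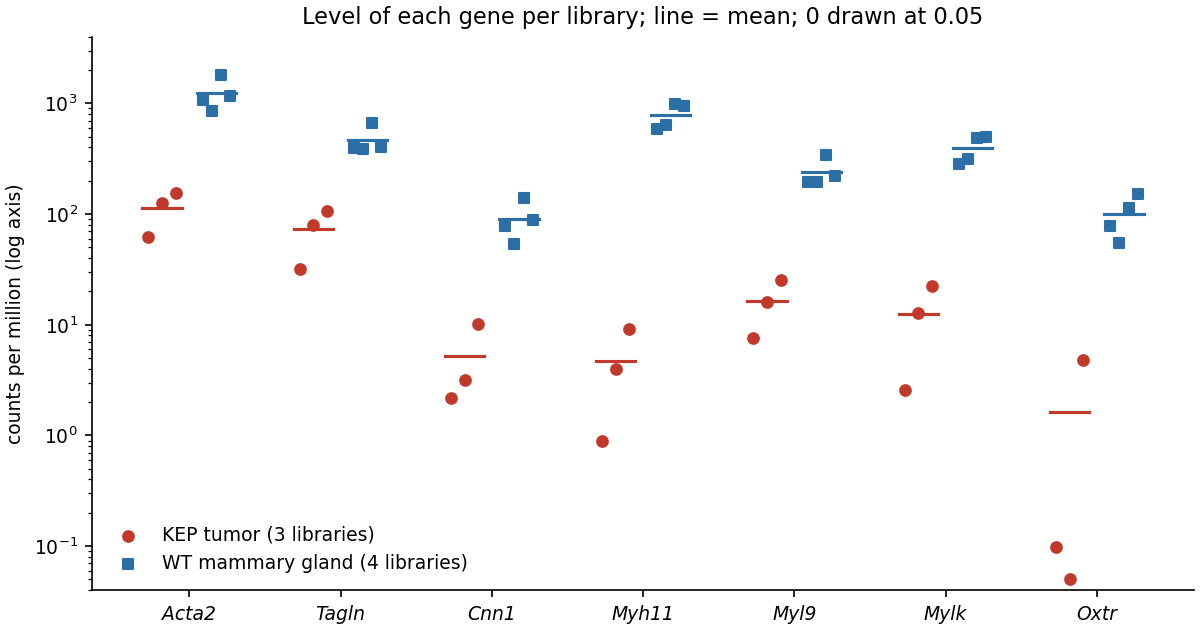
Level of each of the 7 genes in CPM (log axis) in every KEP tumor library (red circles, left) and WT mammary gland library (blue squares, right), with the mean of each group as a line; a value of 0 is drawn at 0.05. No tumor library reaches a gland library for any gene; for Myh11 the tumor libraries lie between 0.884 and 9.25 and the gland libraries between 590.4 and 980.6.

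When cell number in the sort (30000 to 70000 in tumors, 4500 to 30000 in glands) entered the fit as a covariate, 0 of the 7 genes were called, with adjusted p values between 0.0541 and 0.298 and 7 of 7 at an unadjusted p under 0.05 in edgeR; the log2 fold changes lay between -7.73 for Myh11 and -3.13 for Tagln, so cell number and tissue cannot be told apart. Nor can genotype, tissue and the date in the library title, since tumors are all KEP, glands all WT, and no date is shared. With gland 2 as the only gland library, a choice made after seeing the data in which the lone library is assumed to vary like the tumor libraries, edgeR called 0 of 15100 genes, while 6 of the 7 had an unadjusted p under 0.05 and log2 fold changes ran between -6.98 and -2.29. Oxtr lost its call when gland 1, 3 or 4 was left out (adjusted p = 0.0552, 0.0577 and 0.0593, edgeR). Leaving out tumor 3 moved 4 genes by more than 1.5-fold, to log2 fold changes of -8.22 for Myh11, -5.58 for Mylk, -4.96 for Cnn1 and -10.67 for Oxtr, and leaving out tumor 2 moved Oxtr to -5.24. Scaling each library to its pan-T reads called 12527 genes, 12488 of them lower in tumors, where the main scaling called 2035 of 3667 lower. It moved the median of all genes to -3.51, and relative to that median the 7 genes lay between -7.05 for Myh11 and -2.50 for Tagln.

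Tumor 3 and gland 2 had nearly the same pan-T sum, 2079 CPM in the tumor and 2093 CPM in the gland library, so their values can be set side by side without a gap in T cell RNA. Acta2 had 155.1 CPM in tumor 3 and 859.9 CPM in gland 2, and Tagln 106.4 CPM in tumor 3 and 384.2 CPM in gland 2. Myh11 had 9.25 CPM in tumor 3 and 643.5 CPM in gland 2, a 69.6-fold higher value in the gland. For Oxtr the gland library was 11.4-fold higher, and Mylk had 22.3 CPM in tumor 3 and 312.2 CPM in gland 2. This is 1 library of each tissue, with no test.

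The make-up of the 7-gene sum was then set side by side. Levels per kilobase of exon (CPM per kb) were used here, since read counts grow with gene length. In tumors the order of the means was Acta2 (52.0), Tagln (36.6), Myl9 (14.1), Cnn1 (1.90), Mylk (1.12), Myh11 (0.620) and Oxtr (0.342). In glands it was Acta2 (559.9), Tagln (233.2), Myl9 (205.8), Myh11 (103.9), Mylk (34.9), Cnn1 (33.0) and Oxtr (20.8). Myosin heavy chain thus stood below Cnn1 and Mylk in tumors and above both in glands.

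As a share of the 7-gene sum per kb, Acta2 made up 50.1% ± 4.23 in tumors (SD, n = 3) and 46.7% ± 2.34 in glands (SD, n = 4). Tagln took 30.8%, 35.2% and 34.8% in tumors 1 to 3, and 19.9%, 21.5%, 19.8% and 17.5% in glands 1 to 4. Myh11 took 0.225%, 0.460% and 0.790% in tumors and 7.75%, 9.44%, 7.57% and 10.7% in glands. Tumor shares of Tagln were all above, and those of Myh11 all below, every gland share. Mylk made up 0.438% to 1.29% in tumors and 2.51% to 3.80% in glands.

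The make-up was tested as the log2 ratio of each gene's reads to Acta2 reads in the same library, which does not depend on library scaling. Tests were chosen after the levels had been seen. Between the tissues the ratio of Myh11 to Acta2 averaged -5.06 ± 1.03 in tumors (SD, n = 3) and -0.62 ± 0.29 in glands (SD, n = 4), a difference of -4.44. That of Mylk averaged -3.56 ± 0.93 in tumors and -1.63 ± 0.34 in glands, and that of Myl9 -2.87 ± 0.22 in tumors and -2.35 ± 0.14 in glands. The ratio of Tagln was higher in tumors, at -0.72 ± 0.22, than in glands, at -1.39 ± 0.16. In an exact two-sided permutation test each of these 4 ratios gave p = 0.0571, the smallest p that 3 against 4 libraries allow, and an adjusted p of 0.0714 over the 5 ratios tested, so none can pass 0.05 in this design. For Cnn1 the ratio was -4.69 ± 0.70 in tumors and -3.80 ± 0.14 in glands, with overlapping libraries (p = 0.114, exact permutation test, n = 3 and 4). Oxtr was not tested, since tumor 2 had 0 reads.

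**Figure D2:**
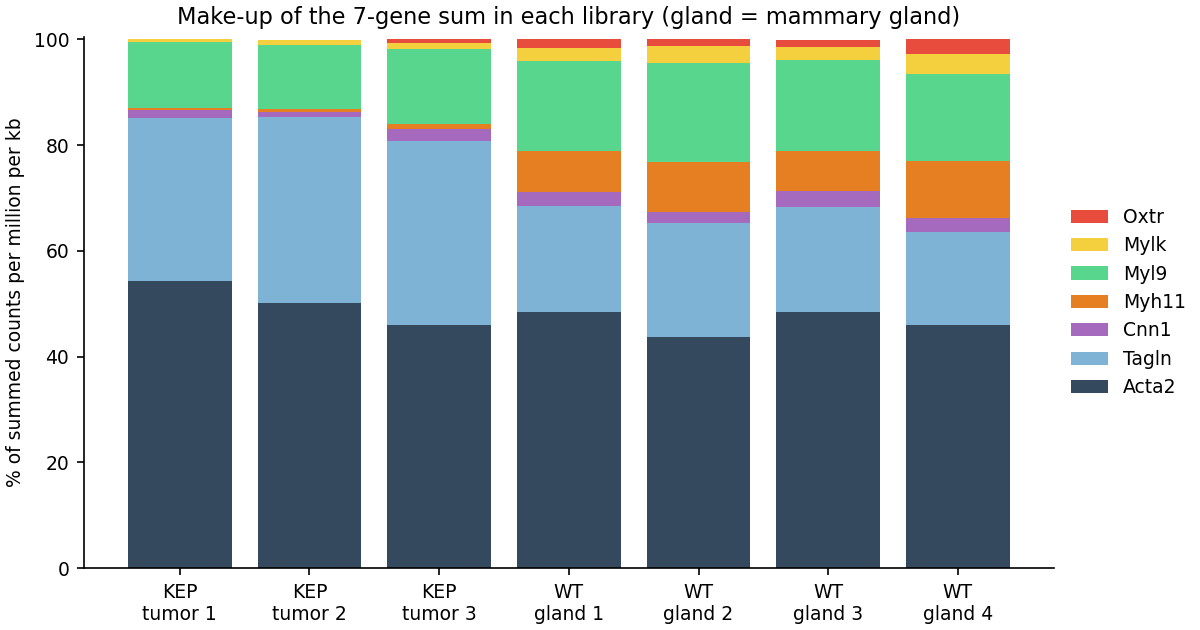
Share of each gene in the summed level of the 7 genes (percent of summed CPM per kb of exon, stacked to 100%) in each KEP tumor and WT mammary gland library. Acta2 fills 43.7% to 54.4% of every bar, Tagln fills more of the tumor bars, and the Myh11 band, 7.57% to 10.7% in glands, is at most 0.790% in tumors.

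Other genes of the contractile machinery were examined beside the 7. Of 24 other genes of the smooth muscle apparatus and its regulators, 13 fell in tumors, 0 rose and 11 did not pass the test. Of all genes tested, 14% were called lower and 11.2% higher. The median log2 fold change of the 24 genes was -1.47. Desmin (Des), the muscle intermediate filament, averaged 2.77 ± 1.57 CPM in tumors (SD, n = 3) and 46.1 ± 9.66 CPM in glands (SD, n = 4), a log2 fold change of -3.97 ± 0.48 (adjusted p = 0.00413, edgeR). Synemin (Synm), which partners with desmin, averaged 2.95 ± 2.47 CPM in tumors and 64.3 ± 24.2 CPM in glands (adjusted p = 0.00753, edgeR). Synm passed the filter on low counts only through the gland libraries, where it is high, which largely set its direction. Csrp1, a LIM-domain protein of smooth muscle, averaged 156.9 ± 30.3 CPM in tumors and 492.1 ± 109.4 CPM in glands (adjusted p = 0.00738, edgeR).

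The chain that carries the oxytocin signal to the motor did not move as one. Of 19 such genes (among them G proteins, phospholipases, calcium channels and myosin phosphatase), 3 rose, 2 fell and 14 did not pass, near the shares of all genes, with a median log2 fold change of -0.13. Rhoa, the small GTPase that restrains myosin phosphatase, averaged 427.9 ± 19.4 CPM in tumors and 300.5 ± 11.3 CPM in glands (adjusted p = 0.0268, edgeR). Plcb3, a phospholipase downstream of the receptor, averaged 81.7 ± 5.97 CPM in tumors and 128.1 ± 10.9 CPM in glands (adjusted p = 0.0292, edgeR). Both genes are expressed by most cell types, T cells included.

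Markers of the cell types that could carry the 7 genes differed between the tissues as well. Of 16 genes of myoepithelial and basal epithelium, 8 fell and 0 rose, with a median log2 fold change of -2.66. Their summed level was 228.5, 377.7 and 1275 CPM in tumors 1 to 3 and 1961 to 3212 CPM in glands. Libraries outside tumor and gland ranged from 263.3 CPM (WT spleen 3) to 443.5 CPM (KEP lung 2) for the same genes. Among the tumors, only tumor 3 thus exceeded this background. Jag2, a Notch ligand, averaged 7.48 ± 4.16 CPM in tumors and 107.8 ± 7.71 CPM in glands (adjusted p = 0.0039, edgeR), and the basal cadherin Cdh3 averaged 10.7 ± 6.58 CPM in tumors and 58.1 ± 16.7 CPM in glands (adjusted p = 0.0118, edgeR). The hemidesmosome collagen Col17a1 averaged 2.23 ± 3.10 CPM in tumors and 105.1 ± 42.0 CPM in glands (adjusted p = 0.0147, edgeR). Of 12 genes of pericytes and vascular smooth muscle, 4 fell and 0 rose, with a median of -0.96, beside the 14% of all genes called lower. Their sum was 65.5 to 565.9 CPM in tumors and 871.2 to 1340 CPM in glands. The receptor Notch3 averaged 24.6 ± 24.6 CPM in tumors and 456.9 ± 62.9 CPM in glands (adjusted p = 0.0139, edgeR), the G protein regulator Rgs4 7.59 ± 4.06 CPM in tumors and 55.5 ± 10.4 CPM in glands (adjusted p = 0.0064, edgeR), and the guanylate cyclase subunit Gucy1a3 1.93 ± 1.67 CPM in tumors and 56.0 ± 14.6 CPM in glands (adjusted p = 0.0043, edgeR). In neither tissue was a marker of these 2 lists at 0 in every library. Col17a1 and Gucy1a3 passed the filter on low counts only through the gland libraries, where they are high, which largely set their direction.

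Luminal and milk genes were also abundant in gland libraries. In both lists the share called lower in tumors was near the 14% of all genes called lower. Luminal epithelium (12 genes) summed to 177.2, 197.2 and 2570 CPM in tumors 1 to 3 and to 5978 to 8349 CPM in glands; 2 of the 12 fell, keratin Krt19 (adjusted p = 0.0115, edgeR) and claudin Cldn4 (adjusted p = 0.00858, edgeR). Milk protein genes (8) summed to 22.2, 5.24 and 5186 CPM in tumors and to 18068, 6318, 20212 and 37728 CPM in glands, and 1 of the 8 fell, the milk-fat protein gene Btn1a1 (adjusted p = 0.00909, edgeR). Tumor 3 therefore stood apart from tumors 1 and 2 in epithelial RNA and in milk genes, and held the highest level of each of the 7 contractile genes among the tumors.

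Fibroblast genes went the other way. Of 12, 5 rose in tumors and 1 fell, where 11.2% of all genes were called higher, with a median log2 fold change of 1.24, and they summed to 7094 to 15235 CPM in tumors and 1572 to 5165 CPM in glands. Fibronectin (Fn1) averaged 3471 ± 1484 CPM in tumors and 258.0 ± 150.9 CPM in glands (adjusted p = 0.00515, edgeR). The collagen chains averaged 3267 ± 1103 CPM in tumors and 314.6 ± 275.1 CPM in glands for Col1a1 (adjusted p = 0.0123, edgeR), and 2336 ± 756.1 CPM in tumors and 377.9 ± 304.4 CPM in glands for Col1a2 (adjusted p = 0.0178, edgeR). Endothelial genes fell in 7 of 10 cases (median -1.92), where 14% of all genes were called lower. Among them were Vwf (adjusted p = 0.00665, edgeR), Pecam1 (adjusted p = 0.00876, edgeR) and Tek (adjusted p = 0.0101, edgeR).

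Among the remaining lists, 9 of 12 tested skeletal muscle genes fell (median -4.48; among them Tnnc2, Ckm and Myl1), as did 7 of 7 tested adipocyte genes (median -6.59; among them Plin4, Fabp4 and Lipe). In that comparison 14% of all genes were called lower. Only 3 of 13 skeletal muscle and 2 of 9 adipocyte genes listed had at least 3 reads in every tumor library. Many of the genes tested thus passed the filter only through gland, where they are high, which largely set their direction. The skeletal muscle sum was small in both, at 31.2 to 54.7 CPM in tumors and 32.2 to 109.0 CPM in glands, with Actc1, Myh4 and Myl1 at 0 in every tumor library. Macrophage genes rose in 8 of 10 cases (median 5.10, among them Mrc1, Fcgr1 and Emr1). Fcgr1 passed the filter only through the tumor libraries, where it is high. Pan-T genes rose in 2 of 10 cases (median 2.86), near the 11.2% of all genes called higher, and Treg identity genes in 2 of 6, Ikzf4 (adjusted p = 0.0207, edgeR) and Tnfrsf18 (adjusted p = 0.0463, edgeR; median 2.88). The part of each cell type in the difference of the 7 genes was not tested.

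**Figure D3:**
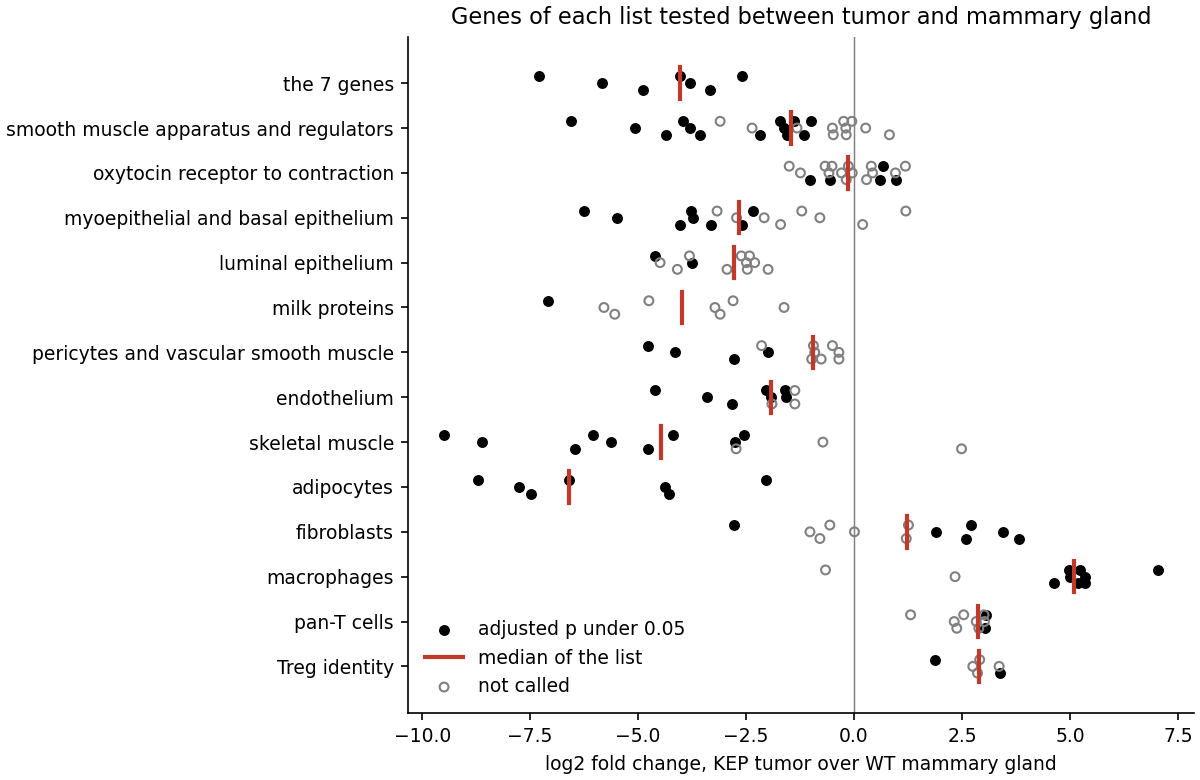
Log2 fold change (KEP tumor over WT mammary gland) of each tested gene in 14 lists; filled points passed an adjusted p of 0.05, open points did not, and the red bar is the list's median. The 7 genes lie between -7.30 and -2.59, the oxytocin signaling chain is centered near 0 (-0.13), and the fibroblast median is at 1.24.

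**Figure D4:**
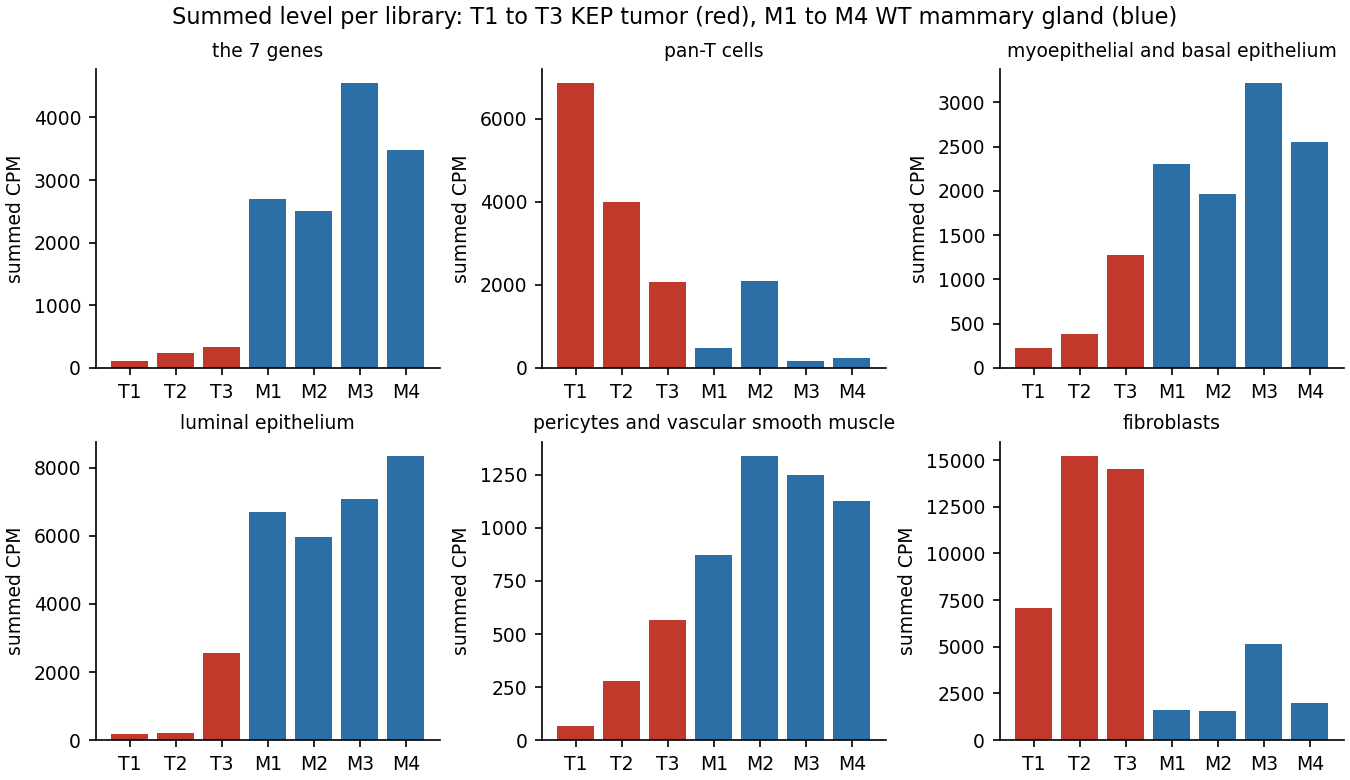
Summed CPM of 6 gene lists in each library, with KEP tumors 1 to 3 (T1 to T3, red) left of WT mammary glands 1 to 4 (M1 to M4, blue). The 7-gene sum is 106.7 to 333.5 in tumors and 2504 to 4542 in glands, while the pan-T sum is highest in tumor 1 (6856) and lowest in gland 3 (178.5).

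The 7 genes moved closely together over the 7 tumor and gland libraries, with Pearson correlations of log2 CPM between 0.937 and 0.997 over the 21 pairs (median 0.988). This is a description: the points share 2 tissues that are far apart. Among 14527 other genes tested there, those most like the mean of the 7 were Pm20d1 (r = 0.999), Casq2 (r = 0.9988), Hoxb9 (r = 0.9985), Slc2a4 (r = 0.9982) and Kcnip3 (r = 0.998). All were low, for example Slc2a4 at 0.0982 to 1.44 CPM in tumors and 17.4 to 33.2 CPM in glands. Over all 31 libraries and 15191 genes the closest were Sema5b (r = 0.9787), Kcnh1 (0.9784), Fads2 (0.9772), Zfp185 (0.9767) and Bche (0.9763).

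The other tissues served as background. WT mammary gland was set against the mean of WT blood, spleen, lung and lymph node. Acta2, Cnn1, Myh11 and Oxtr passed the filter on low counts only through the gland libraries, in which they are high, so their levels are given as a description. Acta2 averaged 1230 ± 411.7 CPM in glands (SD, n = 4), against 0.278 CPM over the 12 other WT libraries, where the highest value was 0.555 CPM. Cnn1 had 5095 reads in the 4 gland libraries and 3 in the 12 others, a pooled ratio of 3678 (95% exact interval 1258 to 17841, counting error only). Oxtr had 5605 reads in glands and 4 in the others, a ratio of 3035 (1185 to 11142). Tagln, Mylk and Myl9, which passed the filter also without tumor and gland libraries, rose in gland, where 46.2% of 14714 genes were called higher. Their log2 fold changes were 8.82 ± 0.19 for Tagln, 8.59 ± 0.32 for Mylk and 8.16 ± 0.26 for Myl9 (edgeR, adjusted p between 2.82e-15 and 1.28e-11). Leaving blood out of the comparison, a choice made after seeing the data, moved Myl9 to 9.89 and Mylk to 9.55. Leaving out spleen 1 moved Mylk to 9.26. Scaling to pan-T reads moved the median gene to 4.38, with 99.7% of called genes higher, against 57.5% with the main scaling.

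KEP tumor was set against the mean of the other 4 KEP tissues, where 36.2% of 13459 genes were called higher. Tagln, Myl9 and Mylk, which passed the filter also without tumor and gland libraries, rose in tumors, at log2 fold changes of 6.56 ± 0.30, 4.46 ± 0.43 and 3.84 ± 0.52 (edgeR, adjusted p between 2.06e-09 and 2.63e-05). Myl9 was nonetheless lower in tumors, at 16.4 ± 8.89 CPM, than in KEP blood, at 47.5 ± 12.1 CPM (SD, n = 3 each), since the mean was taken over 4 tissues on the log scale. Acta2 and Cnn1 passed the filter only through the tumor libraries, in which they are high. Acta2 averaged 114.3 ± 47.8 CPM in tumors (SD, n = 3) and 0.183 CPM over the 12 other KEP libraries, and Cnn1 had 164 reads in tumors and 6 in the 12 others. Without tumor 3 the log2 fold change of Mylk was 3.13, and without blood as a control Myl9 had 6.44 and Mylk 4.97. Pan-T scaling moved the median gene to 0.82, with 92.0% of called genes higher, against 54.8% with the main scaling. Myh11 and Oxtr did not pass the filter; Myh11 had 150 reads in tumors and 33 in the 12 others, and Oxtr 51 in tumors, 50 of them from tumor 3, and 6 in the others.

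In the order of the group means, WT mammary gland came first for each of the 7 genes and never overlapped the next group. KEP tumor came second for Acta2, Tagln, Cnn1, Myh11, Mylk and Oxtr, but for Myl9 it came after KEP and WT blood. Tumor libraries of Acta2, Tagln and Cnn1 all lay above the third group. For Myh11 and Oxtr the lowest tumor library overlapped the third group, WT lung, and for Mylk it overlapped KEP blood. Below these, Acta2, Cnn1, Myh11 and Oxtr averaged at most 0.686 CPM in any group of blood, spleen, lung or lymph node, with at most 9 reads in a library and neighboring groups overlapping.

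Blood was the exception for the light chain and its kinase. Myl9 had 61.4, 39.1 and 41.9 CPM in KEP blood and 34.8, 35.7 and 20.1 CPM in WT blood, against at most 1.59 CPM in any library of spleen, lung or lymph node. Mylk had 13.8, 6.15 and 8.58 CPM in KEP blood and 12.3, 6.0 and 4.00 CPM in WT blood. These comparisons were added after the levels had been seen. In this fit Myl9 passed the filter on low counts only through the blood libraries, where it is high, which largely set its direction. Mylk passed it through lung as well. In KEP mice the log2 fold change of blood over the mean of spleen, lung and lymph node was 7.91 ± 0.37 for Myl9 (adjusted p = 1.71e-11, edgeR) and 4.52 ± 0.50 for Mylk (adjusted p = 4.65e-07), where 17.8% of 12825 genes were called higher. In WT mice it was 6.91 ± 0.37 for Myl9 (adjusted p = 1.14e-10, edgeR) and 3.82 ± 0.50 for Mylk (adjusted p = 5.9e-06), where 18% were called higher; without spleen 1 that of WT Mylk was 4.69 and without WT blood 1 it was 3.23.

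The other contractile genes did not follow them in blood. Acta2 averaged 0.124 CPM in KEP blood and 0.391 CPM in WT blood, and Myh11 0.284 CPM in KEP blood and 0.506 CPM in WT blood. Tagln had 0.104, 0.542 and 0.0858 CPM in KEP blood and 0.832, 0.333 and 0.195 CPM in WT blood, and was called lower in blood than in the other tissues, at log2 fold changes of -2.17 ± 0.52 in KEP mice (adjusted p = 0.00207, edgeR) and -1.52 ± 0.47 in WT mice (adjusted p = 0.0143, edgeR). That mean includes lung, where Tagln is high and through which alone it passed the filter on low counts. With spleen and lymph node the blood libraries of each genotype overlap, at 0.226 to 0.674 CPM in KEP and 0.443 to 1.02 CPM in WT spleen and lymph node. Neither call held at a minimum change of 2-fold (adjusted p = 0.234 in KEP and 1.0 in WT mice, edgeR). Blood libraries held 1 to 8 Tagln reads each; 16.9% of genes were called lower in KEP blood and 15.7% in WT blood. Without KEP blood 2 the KEP value was -3.45, and the WT value was -2.30 without WT blood 1 and lost its call without WT blood 2 (adjusted p = 0.057, edgeR) or 3 (adjusted p = 0.097, edgeR), and in a fit of all 31 libraries (adjusted p = 0.0924, edgeR). Platelets, which contain Myl9 and Mylk but lack nuclei, carry their own marker RNAs. The summed level of 10 platelet genes, listed after the values had been seen, was 415.0, 270.8 and 297.8 CPM in KEP blood and 258.9, 195.6 and 113.4 CPM in WT blood, against 0.823 to 13.3 CPM in all libraries of spleen, lung and lymph node. The defining marker Ppbp averaged 108.8 ± 32.1 CPM in KEP blood and 58.4 ± 24.3 CPM in WT blood (SD, n = 3 each), none of the 10 was at 0 in blood, and Ppbp was at 0 in every lymph node library. The part of platelets in the result was not tested.

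KEP and WT mice were then compared within each tissue. Tagln, Myl9 and Mylk passed the filter, and edgeR called 0 of the 3 in blood, spleen, lung and lymph node, with 0 at an unadjusted p under 0.05 and DESeq2 also calling 0. All genes called either way amounted to 20.2% in blood, 4.26% in spleen, 19.9% in lung and 1.12% in lymph node. Part of these tests rested on few reads, so a missing call there says little. In lymph node Myl9 had 0 reads in KEP and 2 in WT libraries (log2 fold change -2.74 ± 2.22, SE). Mylk had 5 reads in KEP and 7 in WT lymph node, and 9 in KEP and 11 in WT spleen. Myl9 in blood came closest: all 3 KEP libraries lay above all 3 WT libraries, with a log2 fold change of 0.63 ± 0.33 (adjusted p = 0.187, edgeR). With the date in the library title as a random block, limma-voom called it (0.65, adjusted p = 0.0131), and limma-voom without the block did too (adjusted p = 0.0164). The platelet sum was likewise higher in every KEP than in every WT blood library.

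In lung, Tagln was the gene with the clearest level. It had 6.0, 7.01 and 6.57 CPM in KEP lung and 5.98, 3.87 and 5.19 CPM in WT lung, against at most 1.02 CPM in any library of blood, spleen or lymph node. It rose in KEP lung over the mean of these tissues by a log2 fold change of 4.06 ± 0.33 (adjusted p = 1.66e-10, edgeR; 25.9% of genes were called higher) and in WT lung by 3.06 ± 0.33 (adjusted p = 3.45e-08, edgeR; 24.7% called higher). In this fit Tagln passed the filter on low counts only through the lung libraries, where it is high, which largely set the direction of both calls. Mylk had 1.92, 2.99 and 0.925 CPM in KEP lung and 1.99, 2.40 and 1.35 CPM in WT lung. It was called in KEP lung (1.49 ± 0.58, adjusted p = 0.0372, edgeR) but not in WT lung (1.20 ± 0.59, adjusted p = 0.101), and both depended on single libraries: the KEP call was lost without lung 1 or 2, spleen 2 or lymph node 1 or 2 (adjusted p between 0.061 and 0.217, edgeR), and Mylk in WT lung was called with the title date as a replicate block (1.31, adjusted p = 0.0343), without spleen 1 (2.1, adjusted p = 0.00585) or without blood 1 (1.40, adjusted p = 0.0488). With library totals in place of TMM factors, 30.7% of the genes called in KEP lung and 30.3% of those called in WT lung were higher, against 49.7% in KEP lung and 51.1% in WT lung with TMM. Acta2 and Myh11 stayed at or below 1.02 CPM in every lung library. Pcsk7, which overlaps 5.43% of the Tagln exon bases, averaged 79.3 ± 1.67 CPM in KEP lung and 79.3 ± 2.57 CPM in WT lung (SD, n = 3 each), within its range of 63.3 to 85.5 CPM in the other tissues. The level of antisense Gm48529, which overlaps 62.4%, is not given here, so the part of overlap in the lung level was not tested. The lung effect in KEP minus that in WT was 0.99 ± 0.51 for Tagln (unadjusted p = 0.0623, adjusted p = 0.617, edgeR), and 0 of the 3 tested genes were called, where 0.0078% of all genes were.

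**Figure D5:**
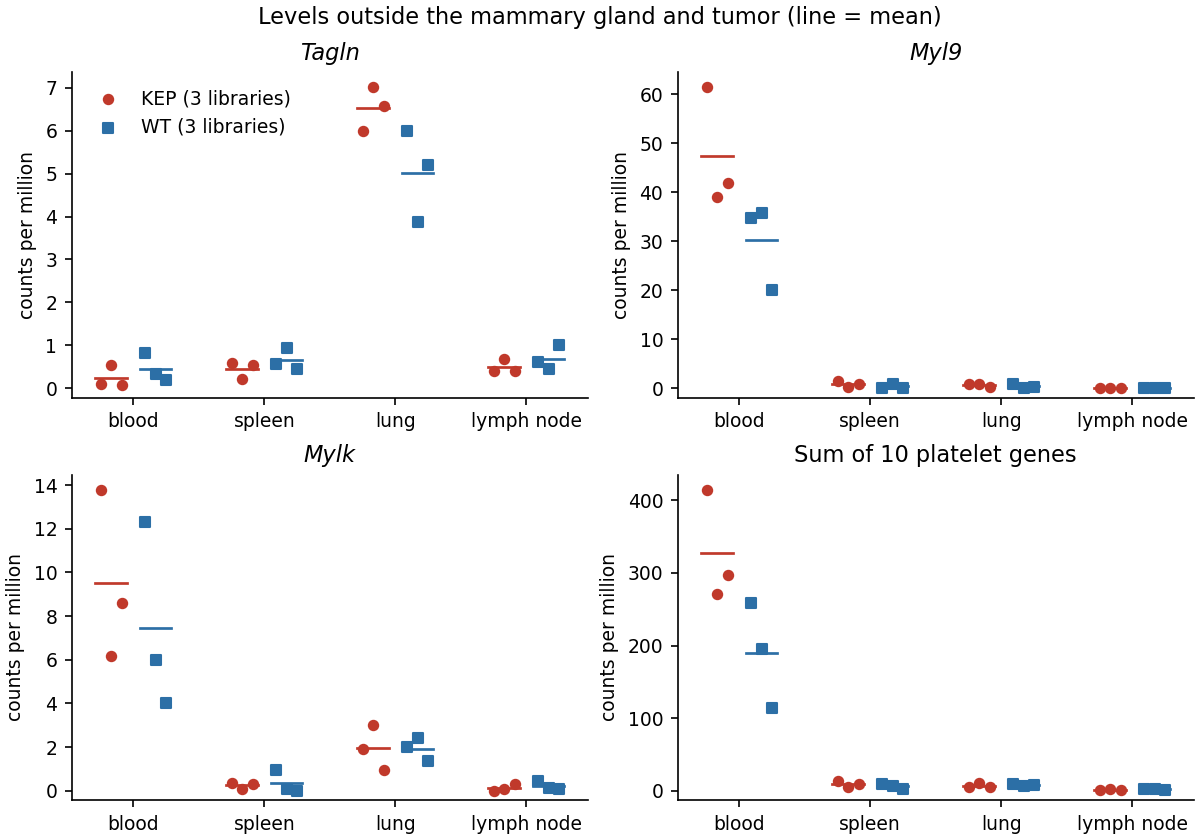
CPM of Tagln, Myl9 and Mylk and of the sum of 10 platelet genes by library and tissue outside tumor and gland, with KEP (red circles) left of WT (blue squares) and the group mean as a line. Tagln stands out in lung (3.87 to 7.01), Myl9 and the platelet sum in blood (20.1 to 61.4 and 113.4 to 415.0), and Mylk in blood (4.00 to 13.8).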

How the data were processed

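RNA of sorted Tregs was sequenced in 31 libraries as 65-base single reads from a strand-specific kit, per the labels' protocols. The deposited table holds raw counts per gene, made by the authors with TopHat2 2.1.0, TopHat and HTSeq on GRCm38, per the submitters' processing notes; the annotation release and strand setting are not given in the sources used here. Genes were tested with edgeR 4.0.16 (R 4.3.3; quasi-likelihood F test, TMM factors, a minimum count of 10, Benjamini-Hochberg adjustment over all genes tested, called at 0.05). Separate fits held tumor and gland, all WT libraries, all KEP libraries, and the tissues other than tumor and gland. CPM use TMM factors over all 31 libraries. SE values derive from the F statistic. Exon lengths and overlaps come from GENCODE M21. limma 3.58.1 and DESeq2 1.42.0 were alternatives. The fits were also run on simulated data with the same spread in every library, whereas real tumor and gland replicates varied more than the others.

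Named genes were all 7 genes, and of each other list up to 3 called genes with the smallest p, or the smallest p if none was called; the 5 genes most like the mean of the 7 were taken by Pearson r. A gene that this rule names is not reported here. The members and lists were chosen with earlier results of these data known. Dates in the library titles are shared by tissues within a genotype and pair the libraries: deviations of same-date libraries from their group means correlated over 0.1 in 18 of 18 KEP pairs and 7 of 18 WT pairs outside tumor and gland, and in 1 of 12 KEP pairs and 0 of 12 WT pairs with them. No date is shared by both genotypes. No replicate pair agreed within sampling noise. P-values measure the spread between mice in KEP groups and between pools in WT groups.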

Additional observations from a re-analysis of the deposited data

Results flagged for a closer look

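Among the WT mammary gland libraries, 4 measures had 1 library far from the other 3, of 7 genes and 15 list sums examined; chance alone flags about 1 in 20. Tagln in gland 3 had 671 CPM, against 384.2 to 403.4 CPM in the other glands. The fibroblast sum of gland 3 was 5165 CPM, against 1572 to 1989 CPM in the others. In gland 2 the pan-T sum was 2093 CPM, against 178.5 to 488.5 CPM in the others. Its Treg identity sum was 2503 CPM, against 187.1 to 537.0 CPM in the others.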

How the results depend on the processing

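Counts of the 7 genes called were recomputed under other scalings, filters, tools, blocks and with each library left out. In mammary gland over other WT tissues 7 genes were called under every alternative, of which Acta2, Cnn1, Myh11 and Oxtr passed the filter only through gland. The same held for Myh11 and Oxtr in tumor against gland. In tumor against gland the count was 0 with sorted cells as a covariate (143 genes called in all) and 0 with gland 2 as the only gland library, and 7 under the 12 other alternatives; without 1 library it was 6 to 7. Over all genes that comparison called 3667, against 1168 with a minimum change of 2-fold, 6878 with limma-voom quality weights, 6011 without tumor 3 and gland 2, 8064 in a fit of all 31 libraries, 12527 with pan-T scaling, and 1675 to 5394 without 1 library. In tumor over other KEP tissues 5 were called, 7 with no filter or with all 31 libraries, 4 with a minimum count of 50, and 5 to 6 without 1 library. Of the 5, Acta2 and Cnn1 passed the filter only through tumor, and 36.2% of all genes were called higher. The count of 7 adds Myh11 and Oxtr, which did not pass the main filter. In KEP against WT blood the main count was 0 and became 1 (Myl9) with limma-voom, with its quality weights and with the replicate block (title date, random). In KEP lung 2 were called, but 1 with upper-quartile factors, library totals, no filter, limma-voom, its quality weights, a minimum change of 2-fold or all 31 libraries, and 1 to 2 without 1 library. Tagln, called in KEP and WT lung alike, passed the main filter only through lung. In WT lung 1 was called, but 2 with limma-voom quality weights and with the replicate block (title date), and 1 to 2 without 1 library. The cause of these changes was not tested. A covariate or a single gland library leaves fewer degrees of freedom, and the part of this was not tested either. Under the replicate block no other call of these genes changed where it could be fitted; no paired analysis was possible for tumor against gland because no date is shared by both groups. No named fold change reversed. Library totals moved the median gene of tumor against gland by -0.16 on the log2 scale. Depth limits Oxtr and Myh11 in tumors (0 to 50 and 9 to 96 reads). In the other tissues it limits every gene, least so Myl9 and Mylk in blood and Tagln in lung.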
